A study of Mus musculus with 56 samples.

Results

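The passage from the testis into the efferent ductules was described from 8 RNA-seq libraries of 3-month-old male C57BL/6 mice, 4 of testis and 4 of efferent ductules, out of 56 libraries in the whole series. The libraries were taken by their labels alone, and 31045 of the 53379 genes in the deposited count table had at least 10 reads over the 8 libraries and were tested. The series holds 7 regions of the male tract, from the testis to the vas deferens, at 3 and 21 months of age, with 4 libraries for each region and age. No mouse carried a transgene or received a treatment according to the labels, so both groups were untreated adult tissue of one strain and age. Each library came from dissected tissue and therefore mixed every cell type of that tissue. The regions were dissected from the same mice, so the tissues share animals, but the labels do not tie a library to a mouse, and p-values measure the spread between these libraries only.

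The efferent ductules are the fine tubes that carry sperm and fluid from the rete testis to the head of the epididymis. Their epithelium holds multiciliated cells, whose motile cilia stir the lumen, and non-ciliated cells, which take up most of the fluid that leaves the testis. The testis makes the other motile axoneme of the male tract, the sperm flagellum. Both axonemes are built on a ring of doublet microtubules around a central pair, with dynein arms, radial spokes and nexin links, so that a large part of the same gene set is used on either side of this border by germ cells and by an epithelium.

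Levels are given as CPM, the reads of a gene per 1000000 reads of its library after TMM scaling, and every adjusted p is from edgeR's quasi-likelihood test over all tested genes. A gene was called higher in one tissue at an adjusted p under 0.05. Fold changes are fitted values, and log2 fold changes are efferent ductules minus testis, followed by a standard error. This standard error was derived from the log2 fold change and the F value of the test. The testis libraries held 16915370 to 19523867 counts with 31788 to 32149 genes above 0, and the efferent ductule libraries 14627147 to 15631528 counts with 27582 to 29392 genes above 0. In tissue libraries, fewer cells of a type and less RNA per cell cannot be told apart.

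Most of the measured transcriptome differed at this border. The testis was higher for 14538 genes (46.8% of those tested) and the efferent ductules for 11698 (37.7%), which left 4809 genes not called. With library size as the only scaling the counts were 13011 and 13428, so which side held more genes depended on the scaling. With a fold change of at least 4, the counts were 9956 (32.1%) and 6313 (20.3%). The libraries of the 2 tissues did not overlap for 13910 genes higher in the testis (44.8%) and for 10864 higher in the efferent ductules (35%). Of all tested genes, 2331 had no read in any efferent ductule library, 614 of them protein coding, whereas 651 tested genes, 191 of them protein coding, had no read in any testis library. The median log2 fold change of all tested genes was -0.30, and scaling by library size alone moved it to 0.09, so a difference of this size has a direction that depends on the scaling.

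Most of the 26 gene lists fell on one side of the border or between. Lists of germ cells, of Sertoli cells (the supporting cells of the seminiferous tubule) and of Leydig cells (the testosterone-producing cells between the tubules) lay far to the testis side, lists of reabsorption, epithelial junctions and stroma lay to the efferent ductule side, and the lists of the axoneme lay between them with members on both sides.

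**Figure D1:**
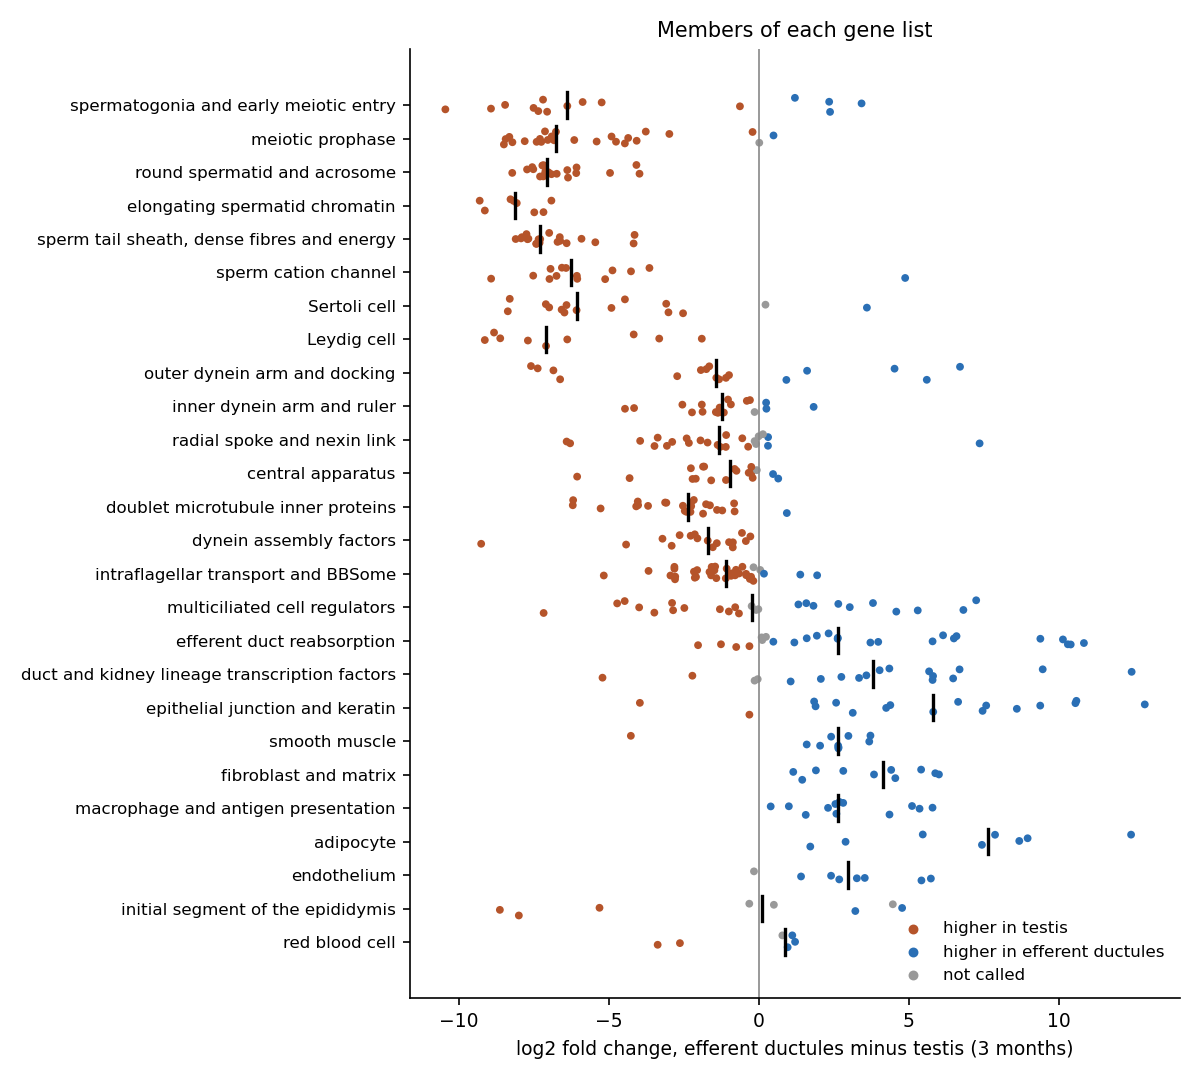
Log2 fold change (efferent ductules minus testis) of every tested member of the 26 gene lists at 3 months, 1 point per gene, coloured by the call at an adjusted p under 0.05. Points left of 0 are higher in the testis. The germ cell lists have medians from -8.11 to -6.24, the 5 axoneme lists from -2.34 to -0.94 and the reabsorption list 2.64.

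The axoneme lists held 103 genes, of which 102 were matched in the table and all 102 were tested. The testis was higher for 82 of them (80.4%, against 46.8% of all genes) and the efferent ductules for 14 (13.7%, against 37.7%), while 6 were not called. With library size alone as the scaling the counts were 74 and 21. The median log2 fold change was -1.60. These genes were present on both sides of the border. A mean of at least 5 CPM in both tissues was reached by 94 of 102 (92.2%), against 10025 of all 31045 genes (32.3%), and 28 of the 102 differed by less than 2-fold. The shares of all genes, 46.8% and 37.7%, are also the background of each count of called list members given below, 32.1% and 20.3% that of counts at 4-fold or more, and 41.9% and 43.3% that of counts with library size only (29.4% and 24.2% at 4-fold or more). The libraries did not overlap for 80 genes higher in the testis (against 44.8% of all genes) and 12 higher in the efferent ductules (against 35%).

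Promoters of a few axoneme genes are shown because they hold the X-box, the binding motif of RFX factors, which are known regulators of cilium genes. An X-box was found on either strand in 15 of the 85 axoneme genes that had a promoter sequence (17.6%), against 474 of 27025 genes (1.75%) and 1.53% of all promoter windows of the same length. Among genes at least 4-fold higher in the testis 3.07% had one, against 1.02% of those at least 4-fold higher in the efferent ductules and 1.15% of genes not called. A match is a description of the letters in this window and not evidence of binding. The capitals mark the X-box in stretches of RefSeq promoter sequence, build GRCm38.p6, read 5′ to 3′ on the strand of the gene.
Hydin, chr8:110266917-110266976 (+): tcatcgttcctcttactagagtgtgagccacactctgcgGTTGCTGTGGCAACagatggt
Cfap44, chr16:44394739-44394798 (+): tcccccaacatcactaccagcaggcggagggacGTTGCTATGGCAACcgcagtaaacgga
Dnaic2, chr11:114727359-114727418 (+): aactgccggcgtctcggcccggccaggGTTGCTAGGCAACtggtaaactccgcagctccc
Tekt2, chr4:126325689-126325748 (-): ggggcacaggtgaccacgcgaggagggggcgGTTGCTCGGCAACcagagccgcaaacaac
These 4 genes were chosen to span the differences seen across the border. Hydin codes for a giant protein of the central pair and was close to equal at 592 and 501 CPM. Cfap44, of the tether of an inner dynein arm, was 3.57-fold higher in the efferent ductules. Dnaic2, an intermediate chain of the outer dynein arm, was 2.12-fold higher in the testis, and Tekt2, a filament protein of the doublet wall, 12.8-fold. Dnaic2, and the choice of these windows among the 15, were made after their values were seen.

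The outer dynein arm, the motor row that sets the beat frequency, had genes far to either side. Of its 17 genes, 12 were higher in the testis (against 46.8% of all genes) and 5 in the efferent ductules (against 37.7%). Dnah8, a heavy chain of the sperm outer arm, had 4371, 3870.0, 3503 and 4488 CPM in the testis libraries and 19.9, 13.0, 52.0 and 13.5 CPM in the efferent ductule libraries. Of the genes at least 4-fold higher in the testis without overlap it was the most abundant, 165-fold higher there (log2 fold change -7.36 ± 0.42, adjusted p = 2.62e-10), and the lowest testis library stood far above replicate 3, the highest of the efferent ductule libraries. Dnah5, the heavy chain of the same class in cilia, had 11.2, 9.69, 15.2 and 11.8 CPM in the testis and 569.8, 557, 599.7 and 605 CPM in the efferent ductules. It was 48.8-fold higher in the efferent ductules (log2 fold change 5.61 ± 0.13, adjusted p = 1.30e-14), with no overlap. The opposite steps of Dnah8 and Dnah5 mean that per kilobase of exon the testis held 151 CPM of Dnah8 and 0.764 of Dnah5, and the efferent ductules 0.917 and 37.3.

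The second heavy chain of the outer arm showed the same exchange. Dnah17, the form known from sperm, had 1210.3, 1119, 945 and 1288 CPM in the testis and 6.52, 4.30, 23.8 and 4.91 CPM in the efferent ductules. Dnah9, the form known from cilia, had 18.8, 17.6, 23.2 and 19.5 CPM and 465, 462, 452 and 449.8 CPM. The first was 114-fold higher in the testis and the second 23.2-fold higher in the efferent ductules, and neither pair of groups overlapped. Dnah11, a further ciliary heavy chain that is mutated in primary ciliary dyskinesia, had 5.20, 5.30, 5.40 and 4.55 CPM in the testis and 564, 529, 568 and 493 CPM in the efferent ductules. It was 105-fold higher in the efferent ductules (log2 fold change 6.72 ± 0.11, adjusted p = 1.27e-15), and 1 pseudogene near-identical to it could share its reads. Nme8, a thioredoxin-domain protein linked to the outer arm, had 208, 212, 189 and 189 CPM in the testis and 0.355, 0.537, 2.86 and 0.231 CPM in the efferent ductules, where replicate 3 was the highest.

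Inner dynein arms shape the bend. Of 19 genes of the inner arm and its ruler, 15 were higher in the testis, 3 in the efferent ductules and 1 was not called, and 4 passed 4-fold, all on the testis side (against 32.1% of all genes). Dnah1, Dnah12 and Dnah6 are heavy chains of single inner arms. Dnah1 had 555, 491, 471 and 569.5 CPM in the testis and 208, 200.3, 203 and 204 CPM in the efferent ductules, 2.56-fold lower. Dnah12 differed by 1.31-fold (log2 fold change -0.39 ± 0.10, and -0.0039 with library size as the only scaling) on the testis side and Dnah6 by 1.19-fold on the efferent ductule side (adjusted p = 0.028) but with overlapping libraries. The call of Dnah12 was lost without efferent ductule replicate 1 or 2 (-0.31 and -0.29 on the log2 scale), with library size only and in a fit of the 28 libraries of this age (-0.33), and that of Dnah6 without efferent ductule replicate 4 or testis replicate 2 or 3 (0.26, 0.22 and 0.20). The call of Dnah6 was also lost with DESeq2, with median-of-ratios scaling, in the fit of 28 libraries and with protein-coding genes only (0.14, 0.14, 0.32 and 0.21). Dnah7a was 21.9-fold higher in the testis, but it shares long near-identical stretches with Dnah7b and Dnah7c, so the split of reads among the 3 is uncertain.

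Radial spokes, which pass signals from the central pair to the dynein arms, held a similar exchange. Rsph4a, a spoke head protein of cilia, had 0.761, 1.40, 0.307 and 0.715 CPM in the testis and 129, 135, 126 and 143 CPM in the efferent ductules. Its sperm counterpart Rsph6a had 155, 188, 155 and 159 CPM in the testis and 1.95, 0.597, 4.80 and 0.866 CPM in the efferent ductules. Rsph4a was 165-fold higher in the efferent ductules (log2 fold change 7.37 ± 0.17) and Rsph6a 77.8-fold higher in the testis (log2 fold change -6.28 ± 0.30), without overlap in either. Of the 24 genes of spokes and nexin links, 17 were higher in the testis, 3 in the efferent ductules and 4 were not called. These counts were 15, 7 and 2 with library size only. Ropn1l, a spoke protein with a docking domain for kinase anchors, was 84.3-fold higher in the testis, and Cfap206, at the base of a spoke, 15.4-fold. Rsph1, a spoke head protein shared by cilia and flagella, had 475, 641, 457 and 543 CPM in the testis and 65.9, 77.1, 74.0 and 70.6 CPM in the efferent ductules, 7.35-fold lower.

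Of the 6 genes with the smallest differences, 3 were of the nexin-dynein regulatory complex, the link between neighbouring doublets. Rsph14, a spoke protein, had 17.6, 18.9, 21.7 and 16.5 CPM in the testis and 19.4, 19.9, 19.9 and 15.8 CPM in the efferent ductules (log2 fold change 0.00 ± 0.11, adjusted p = 0.98). Drc3 had 89.2, 86.9, 85.5 and 88.3 CPM in the testis and 82.8, 87.0, 82.4 and 78.0 CPM in the efferent ductules, and Gas8, its partner in the regulatory complex, had means of 44.3 and 40.5 CPM. Drc7, also of this complex, differed by log2 fold change 0.15 ± 0.08, Ccdc40, of the molecular ruler, by log2 fold change -0.13 ± 0.11 and Spef2, of the central pair, by log2 fold change -0.06 ± 0.07. None of these 6 was called, and their libraries overlapped, which does not show that the levels were equal. Their calls depended on the scaling. With library size only, all 6 were called higher in the efferent ductules (log2 fold changes 0.25 to 0.54), whereas Drc3 and Spef2 were called higher in the testis with DESeq2 (-0.19 and -0.17) and with median-of-ratios scaling (-0.19 and -0.17). Single libraries and age mattered as well, since Ccdc40 was called higher in the testis without testis replicate 3 (-0.24), Drc7 was called higher in the efferent ductules without testis replicate 2 (0.22), and at 21 months Drc7 (0.53) and Rsph14 (0.49) were called higher in the efferent ductules.

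The central apparatus had 15 genes higher in the testis, 2 higher in the efferent ductules and 1 not called out of 18. These counts were 11, 4 and 3 with library size only. Hydin had 629, 568, 580.0 and 589 CPM in the testis and 486, 511, 493 and 516 CPM in the efferent ductules. The libraries did not overlap (log2 fold change -0.24 ± 0.08, adjusted p = 0.01), but the direction turned with library size as the only scaling (0.15), and the call was lost without efferent ductule replicate 1, 2 or 4 (-0.17, -0.19 and -0.19), in the fit of 28 libraries (-0.18) and without Gm42418 and mitochondrial genes (-0.20). Spag17, a central pair scaffold, had 647, 601, 561 and 607 CPM in the testis and 29.98, 24.1, 37.7 and 30.9 CPM in the efferent ductules, 19.7-fold lower. Spef1, which bundles microtubules, was 1.58-fold higher in the efferent ductules and Cfap54, an arm of the central pair, 1.40-fold.

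The list of proteins inside the doublet microtubules, which also held Meig1 and the kinase Mak, was the axoneme list most to the testis side. Of 24 genes 23 were higher in the testis, 16 of them by at least 4-fold (against 32.1% of all genes, and 12 with library size only), and 1, Cfap77, was 1.92-fold higher in the efferent ductules. Tekt5, a tektin filament protein known from sperm, had 189, 188, 177 and 168 CPM in the testis and 2.25, 2.92, 2.64 and 2.02 CPM in the efferent ductules, and Tekt1, the tektin known from cilia, was also higher in the testis, by 5.50-fold. Meig1, which carries cargo during flagellum assembly, had 814, 803, 776 and 653 CPM in the testis and 8.41, 9.85, 14.8 and 8.77 CPM in the efferent ductules. Meig1 was 72.5-fold and Tekt5 73.1-fold higher in the testis, without overlap.

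**Figure D2:**
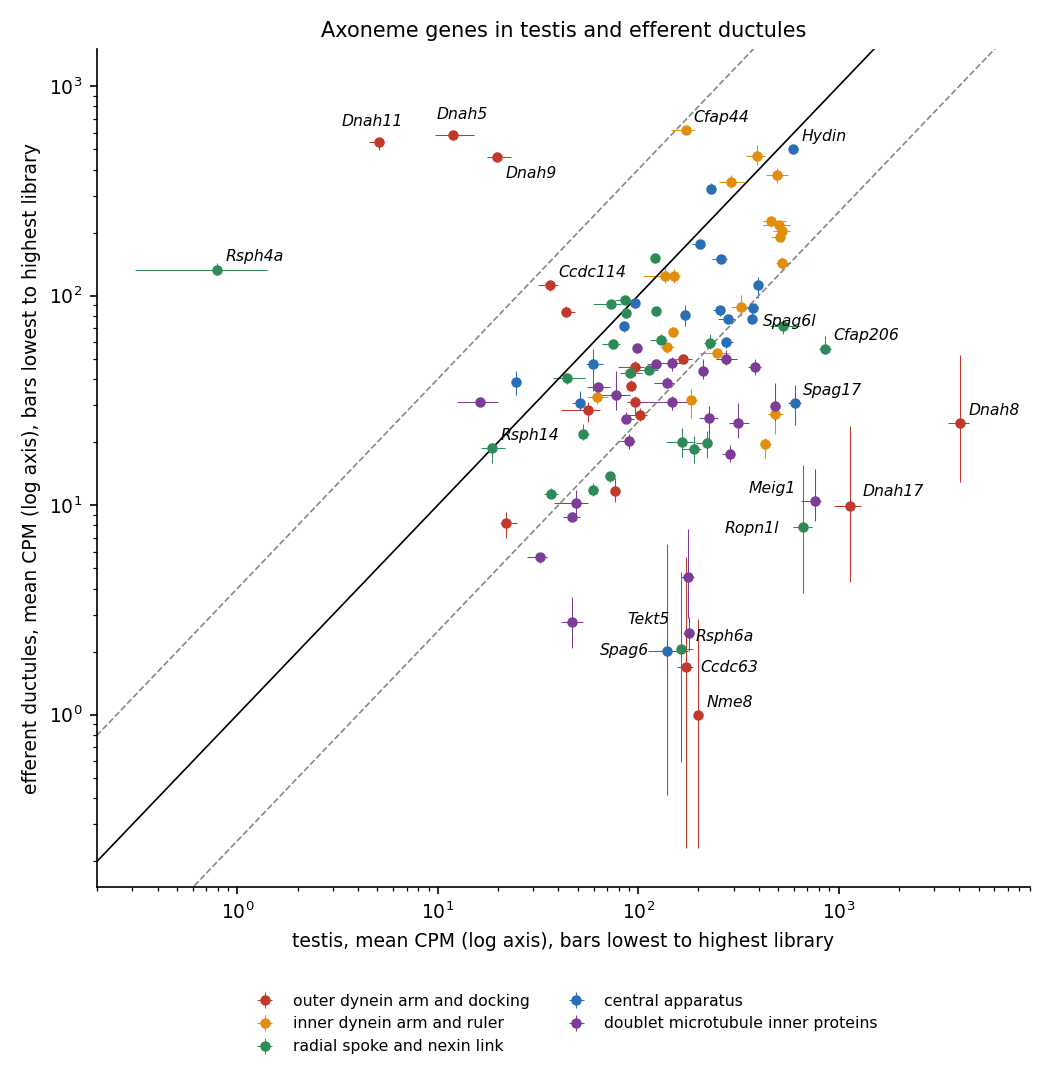
Mean CPM of the 102 axoneme genes in the testis (horizontal, log axis) and the efferent ductules (vertical, log axis) at 3 months, 1 point per gene coloured by list, with bars from the lowest to the highest library. Most points lie below the line of equal level, and Dnah5, Dnah9, Dnah11 and Rsph4a lie far above it.

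The machinery that builds axonemes was on the testis side as well. All 17 dynein assembly factors, which fold and preload dynein arms in the cytoplasm, were higher in the testis, 8 of them by at least 4-fold (against 32.1% of all genes), and with library size as the only scaling 15 of the 17 were called, 5 of them at 4-fold. Dnaaf1 had 695, 859.6, 646 and 809.9 CPM in the testis and 33.2, 32.8, 44.7 and 30.3 CPM in the efferent ductules. Zmynd10 was 9.21-fold higher in the testis. The listed Pih1d3 is a single-exon gene at chr1:31222838-31224288 (+), in GRCm38, and had 14.7, 12.7, 11.6 and 14.2 CPM in the testis and 1 read in all efferent ductule libraries together, a ratio of 922 with a 95% counting interval from 165 upward. A multi-exon relative on the X chromosome, Pih1h3b, for which RefSeq gives the name Dnaaf6b, was not in the list and was added after its values were seen. It had 1.97, 2.56, 1.72 and 1.04 CPM in the testis and 3.55, 3.04, 4.05 and 3.69 CPM in the efferent ductules (log2 fold change 0.97 ± 0.23, adjusted p = 0.0011), higher in the efferent ductules without overlap. Of the pair, the efferent ductules thus held mainly the X-linked gene and the testis mainly the gene on chromosome 1.

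Intraflagellar transport, the traffic along the doublets, and the BBSome, its membrane cargo adaptor, had 30 of 35 genes higher in the testis (against 46.8% of all genes), 3 higher in the efferent ductules (against 37.7%) and 2 not called. With library size only, 24 were higher in the testis, 5 in the efferent ductules and 6 were not called. Kif17, a motor of this traffic, had 356, 467, 403 and 431 CPM in the testis and 8.47, 7.82, 21.5 and 8.31 CPM in the efferent ductules, 35.7-fold lower. Ift140 and Dync2h1, which drive return transport, were 6.99-fold and 2.73-fold higher in the testis. Ttc30b, a transport subunit, went the other way with 11.7, 14.7, 12.7 and 9.48 CPM in the testis and 49.1, 45.9, 39.8 and 53.9 CPM in the efferent ductules. Without efferent ductule replicate 3 the count on the testis side was 29.

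The initial segment of the epididymis, the next region after the efferent ductules, served as a tissue without many motile cilia. On a scaling over the 28 libraries of 3-month-old mice, every efferent ductule library was above every initial segment library for 90 of the 102 axoneme genes, against 25.9% of all tested genes. The ratio of efferent ductules to initial segment had a median of 9.26 over these genes, with the middle of them between 4.98 and 11.9. Dnah5 had a mean of 526 CPM in the efferent ductules and 40.1 CPM in the initial segment, and Hydin 453 and 33.5 CPM. For Dnah8 the means were 21.96 and 22.2 CPM, so that its low level in the efferent ductules was also found one region further on. The efferent ductule mean of Dnah8 was raised by replicate 3, the highest of these libraries. These levels are given as values without a test.

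Genes with a form in germ cells and a form in other cells were followed as 19 pairs. All 19 germ cell members were higher in the testis (18 with library size only, where the call of Cstf2t was lost), and in 14 pairs the other member was higher in the efferent ductules. Of 8 pairs made of an X-linked parent gene and its autosomal retrogene, 7 exchanged in this way, as did 5 of 7 pairs of axonemal paralogues and 2 of 4 pairs of enzymes or carriers. Since the pairs were chosen with earlier results known and from textbook knowledge of sperm forms, the direction of the germ cell member was built into the choice.

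**Figure D3:**
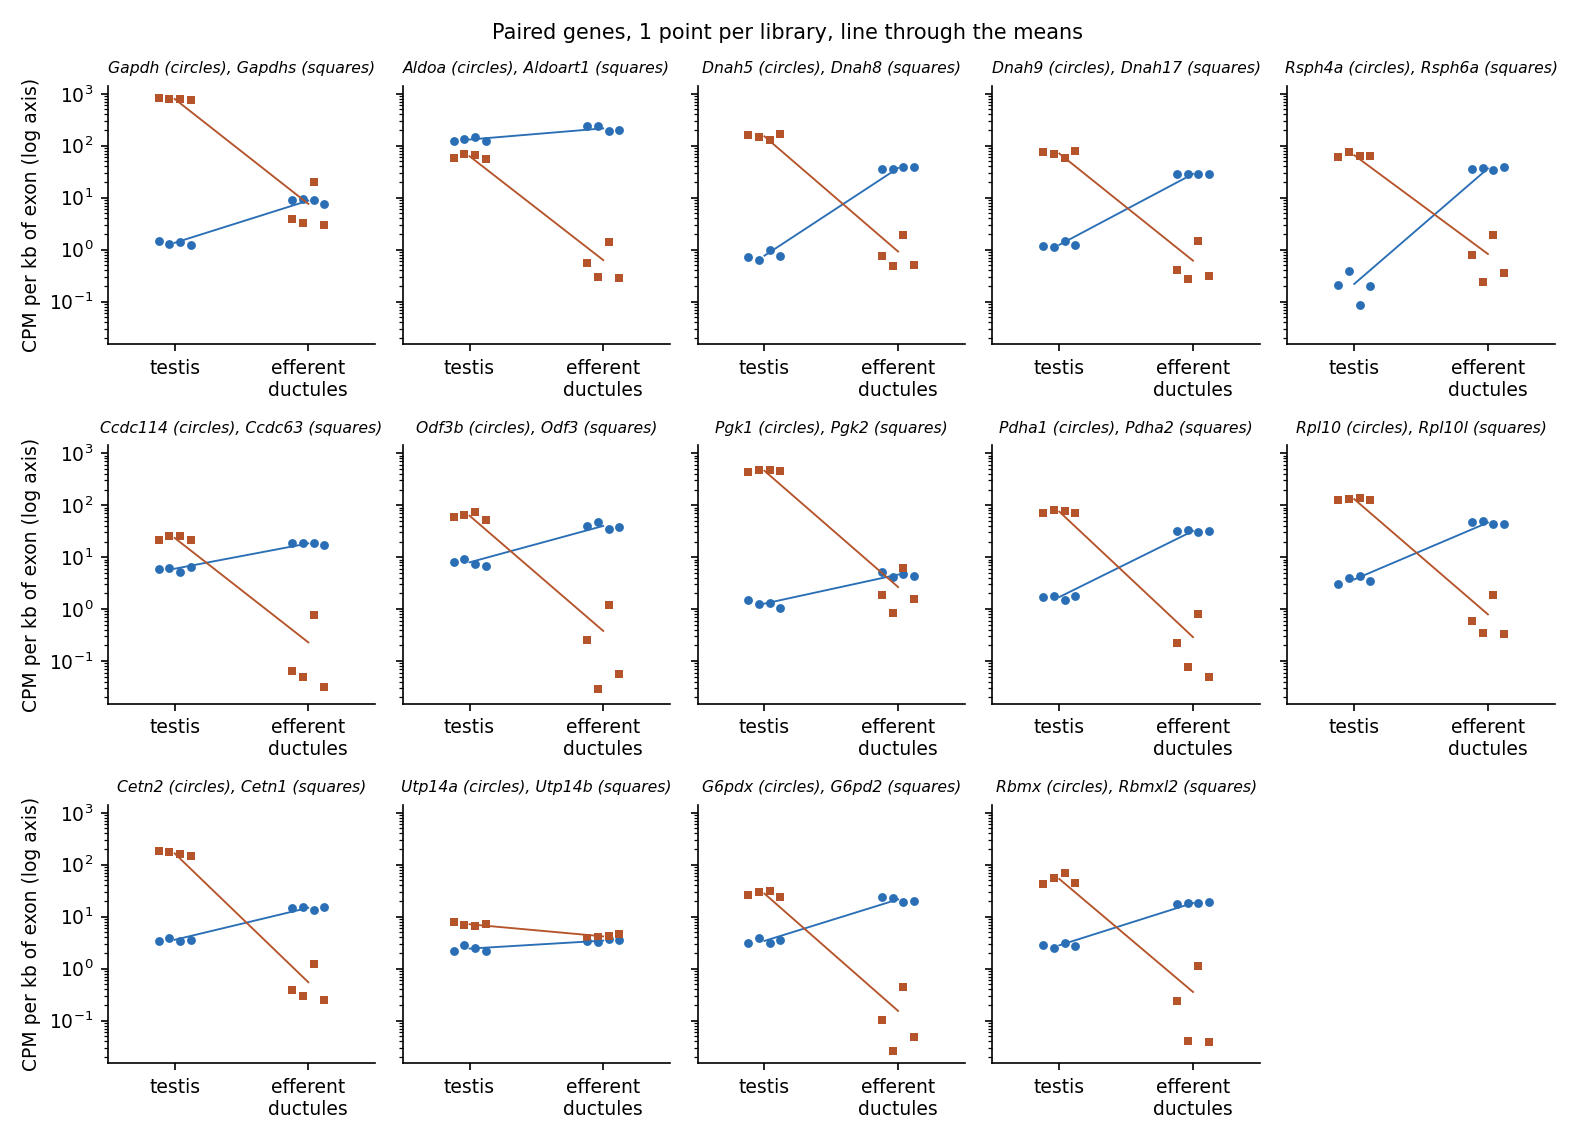
Levels of the 14 pairs called in opposite directions, in CPM per kb of exon (log axis), with 1 point per library and a line through the means of the testis and of the efferent ductules. Circles are the member used in other cells and squares the germ cell member, and the lines cross between the tissues in 12 panels but not in those of Aldoa with Aldoart1 and Utp14a with Utp14b.

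The retrogene pairs are shown by their first coding bases, since they are copies that can still be told apart by sequence. Phosphoglycerate kinase makes ATP in glycolysis, and its X-linked gene Pgk1 lies at chrX:106187100-106203699 (+) and its retrogene Pgk2 at chr17:40207015-40208640 (-) in GRCm38. Over the 1254 coding bases they were 79.27% identical, and capitals mark the bases that differ between the 2 lines, 23 of the first 90.
Pgk1: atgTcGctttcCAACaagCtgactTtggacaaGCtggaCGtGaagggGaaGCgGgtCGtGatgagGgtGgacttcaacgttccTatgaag
Pgk2: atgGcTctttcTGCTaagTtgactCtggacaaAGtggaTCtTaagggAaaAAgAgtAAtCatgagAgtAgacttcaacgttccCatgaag
The ribosomal protein gene Rpl10, at chrX:74270812-74273135 (+), and its retrogene Rpl10l, at chr12:66283379-66284401 (-), were 84.81% identical over 645 coding bases, with 13 differences in the first 90.
Rpl10: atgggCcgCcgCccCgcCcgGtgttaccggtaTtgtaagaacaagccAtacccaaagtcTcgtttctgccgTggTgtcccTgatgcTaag
Rpl10l: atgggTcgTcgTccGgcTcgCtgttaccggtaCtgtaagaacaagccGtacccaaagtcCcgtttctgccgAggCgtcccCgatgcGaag
The coding sequences are from GENCODE M21. Pgk1 has 4 and Rpl10 has 8 near-identical copies elsewhere in the annotation, mostly pseudogenes, and Rpl10l has 1, so the levels of these genes are uncertain.

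Pgk2 had 719, 765, 786 and 727 CPM in the testis and 3.08, 1.37, 10.3 and 2.60 CPM in the efferent ductules, 170.3-fold lower. Pgk1 had 3.36, 2.86, 2.89 and 2.34 CPM in the testis and 11.7, 9.43, 10.52 and 9.81 CPM in the efferent ductules, 3.61-fold higher. Per kilobase, Pgk1 made up 0.276% of the pair in the testis and 63.5% in the efferent ductules, where replicate 3 had the most Pgk2. Rpl10l dropped from 131 to 0.792 CPM per kb across the border and Rpl10 went from 3.73 to 46.4. Pdha1 and Pdha2, subunits of pyruvate dehydrogenase at the entry to the citric acid cycle, exchanged from 1.71 and 75.2 CPM per kb in the testis to 32.0 and 0.289. The other X-linked parents that were higher in the efferent ductules were Cetn2 (a centrin of centrioles, 4.13-fold), G6pdx (of the pentose phosphate pathway, 6.30-fold), Rbmx (an RNA-binding protein, 6.53-fold) and Utp14a (a factor of ribosome assembly, 1.42-fold). Their retrogenes Cetn1, G6pd2, Rbmxl2 and Utp14b were 292-, 172-, 142- and 1.71-fold higher in the testis. Cstf2, a subunit of the 3′ end processing complex, was the exception, 2.20-fold higher in the testis together with its retrogene Cstf2t at 1.42-fold, and the call of Cstf2t was lost with library size only (-0.11).

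Among glycolytic enzymes, Gapdhs, the sperm tail form of glyceraldehyde-3-phosphate dehydrogenase, had 1352, 1290.5, 1263 and 1226 CPM in the testis and 6.28, 5.13, 32.6 and 4.85 CPM in the efferent ductules. Ldhc, the sperm lactate dehydrogenase, had 2718, 2811, 2733 and 2782 CPM in the testis and 8.41, 3.40, 36.4 and 4.44 CPM in the efferent ductules. Ldha, the form of most other cells, was also higher in the testis, 3.13-fold, and so was Cycs, the general cytochrome c, at 2.39-fold. Aldoa, the aldolase of muscle and most cells, had 360.1, 399, 420.1 and 354 CPM in the testis and 683, 684, 565 and 581 CPM in the efferent ductules and made up 67.7% of its pair even in the testis. The levels of Ldha and Cycs are uncertain because each has near-identical copies, 3 and 4, and that of Gapdh because 43 near-identical copies, 39 of them pseudogenes, could take its reads.

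Of the axonemal pairs, the docking proteins Ccdc114 and Ccdc63 and the outer dense fibre proteins Odf3b and Odf3 exchanged too. Ccdc114, which anchors the outer arm in cilia, was 3.07-fold higher in the efferent ductules, and Ccdc63 had 161, 188, 185 and 156 CPM in the testis and 0.474, 0.358, 5.66 and 0.231 CPM in the efferent ductules. Odf3b went from 7.95 to 39.9 CPM per kb and Odf3 from 62.9 to 0.380. Spag6l and Spag6, of the central pair, were 88.4% identical over their aligned coding bases, and both were higher in the testis, 4.26-fold and 66.1-fold, the latter with a log2 fold change of -8.07 without efferent ductule replicate 3 against -6.05 with it. Over the 14 pairs called in opposite directions, the member used in other cells made up from 0.169% to 67.7% of its pair per kilobase in the testis and from 45.3% to 99.7% in the efferent ductules. The lowest share in the testis was that of Gapdh, whose level is uncertain because of its near-identical copies.

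Regulators of the multiciliated state were split between the tissues. Of 25 genes, 10 were higher in the efferent ductules (40%, against 37.7% of all genes), 12 in the testis (48%, against 46.8%) and 3 were not called, so as a list they were close to the background in both directions. Foxj1, the forkhead factor that switches on motile cilium genes, had 64.2, 91.3, 91.1 and 72.6 CPM in the testis and 517, 546, 462 and 489 CPM in the efferent ductules, 6.31-fold higher (log2 fold change 2.66 ± 0.12, adjusted p = 1.14e-11). Trp73, the p53 relative that acts above Foxj1 in multiciliated cells, had 0.444, 0.305, 0.184 and 0.195 CPM in the testis and 45.7, 48.2, 43.2 and 39.6 CPM in the efferent ductules. It was 153-fold higher there (log2 fold change 7.25 ± 0.17), from a testis level of 18 reads in all 4 libraries. Ank3, which organises the lateral membrane, was 14.1-fold higher in the efferent ductules.

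On the testis side stood Rfx2, an X-box factor needed for spermatids, with 417, 401, 399 and 374 CPM in the testis and 70.3, 73.9, 75.3 and 67.1 CPM in the efferent ductules. Rfx4, a further RFX factor, had 133, 143, 141 and 130.2 CPM in the testis and 0.652, 0.119, 2.81 and 0.0577 CPM in the efferent ductules, with replicate 3 again the highest of the latter. Fank1, a nuclear protein of meiotic and spermatid cells, was 7.202-fold higher in the testis. The other RFX and multiciliation genes below were chosen after their values were seen. Rfx3, the RFX factor of ciliated epithelia, had means of 85.1 and 84.7 CPM and was not called (log2 fold change -0.01 ± 0.08, adjusted p = 0.94). With library size only it was called higher in the efferent ductules (0.38). Myb, Gmnc and Mcidas, which start the multiciliated program, were 114-, 39.6- and 24.1-fold higher in the efferent ductules, with Mcidas at a mean of only 1.69 CPM. Deup1 and Plk4, which act in centriole amplification and duplication, were 26.2- and 22.04-fold higher in the testis.

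**Figure D4:**
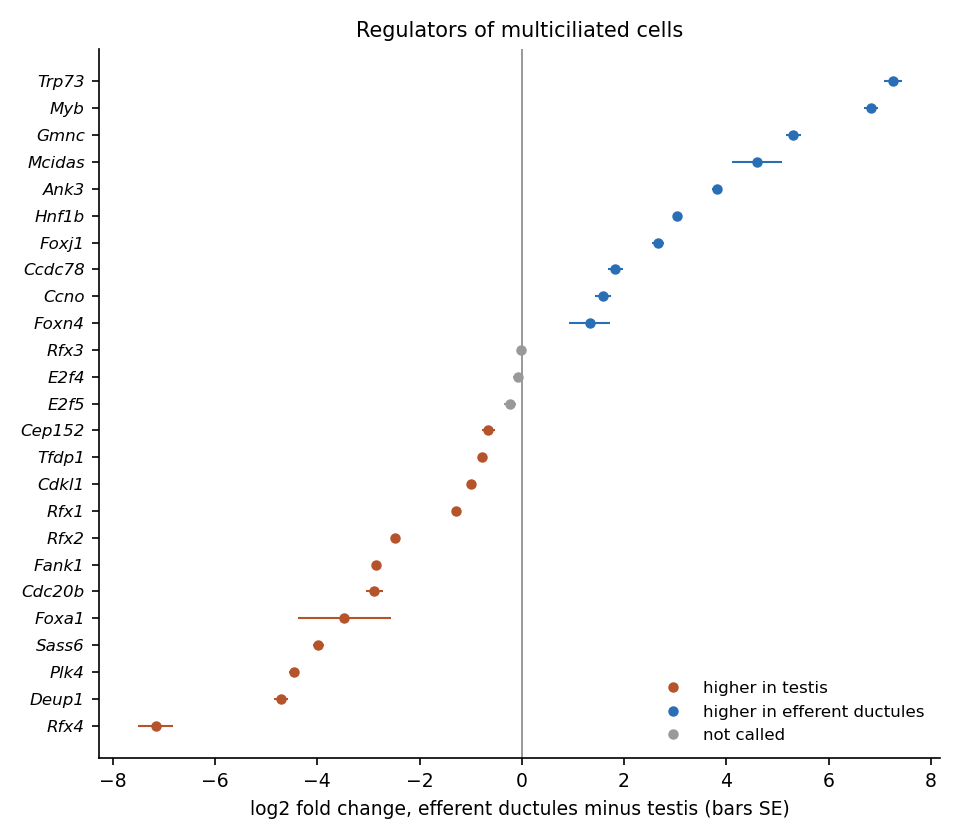
Log2 fold change (efferent ductules minus testis) of 25 regulators of multiciliated cells at 3 months, with bars of 1 standard error, coloured by the call. Trp73 and Myb lie farthest to the efferent ductule side at 7.25 and 6.83 and Rfx4 farthest to the testis side at -7.16, while Rfx3, E2f4 and E2f5 lie near 0 and were not called on this scaling. With library size only, Rfx3 and E2f4 were called higher in the efferent ductules (0.38 and 0.31), and E2f5 was called higher in the testis with DESeq2 (-0.34).

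Germ cell genes were the far testis side of the border. All 20 genes of round spermatids and the acrosome, all 8 of elongating spermatid chromatin and all 20 of the sperm tail sheath, dense fibres and energy supply were at least 4-fold higher in the testis (background 32.1%). Prm1 and Prm2, the protamines that pack sperm DNA, had 2663, 2892, 2912 and 2529 and 3381, 3349.9, 3117 and 2568 CPM in the testis. In the efferent ductules Prm1 had 10.9, 9.37, 31.0 and 10.3 CPM and Prm2 had 14.2, 14.3, 60.2 and 14.5 CPM. Tnp1, the transition protein that comes before them, was 628-fold higher in the testis, with 0.533, 1.25, 1.996 and 0.519 CPM in the efferent ductules. Akap4, the main protein of the fibrous sheath, had 2278, 2260.2, 2141 and 2094 CPM in the testis and 5.98, 4.72, 34.1 and 6.64 CPM in the efferent ductules. Capza3, an actin-capping protein of sperm, was the farthest of its list at 274-fold, and Odf2, a dense fibre and centriole protein, was 17.9-fold higher, with 133 CPM left in the efferent ductules. Acrv1, of the acrosome, was 296-fold and the spermatid kinases Tssk1 and Tssk2 139.8- and 148-fold higher in the testis.

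Earlier germ cells showed the same side with a few exceptions. Of 25 meiotic genes, 23 were higher in the testis, 1 in the efferent ductules and 1 was not called. Sycp3 and Sycp2, of the synaptonemal complex that holds paired chromosomes, were 359- and 295-fold higher in the testis, and Piwil1, of the piRNA pathway, 222-fold. Rec8, the meiotic cohesin subunit, had 88.9, 108, 124 and 83.6 CPM in the testis and 144, 148, 134 and 146 CPM in the efferent ductules (log2 fold change 0.50 ± 0.11, adjusted p = 4.96e-04), with all efferent ductule libraries above all testis libraries. Of 15 genes of spermatogonia and meiotic entry, 11 were higher in the testis and 4 in the efferent ductules. Stra8, the gatekeeper of meiosis, had 11.98, 9.20, 8.29 and 12.2 CPM in the testis and no read in any efferent ductule library, which makes it at least 241-fold higher in the testis against a floor of 3 counts over the group. Zbtb16, used as a marker of spermatogonia but also active in stroma, had 11.9, 10.7, 11.1 and 11.3 CPM in the testis and 139.9, 123, 113 and 110.4 CPM in the efferent ductules. Its place on the efferent ductule side, with Kit, Gfra1 and Nanos3, which were named after their values were seen, was the opposite of Ddx4, the germ line helicase, at 132-fold higher in the testis.

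Of 14 genes of the sperm cation channel and its partners, 13 were at least 4-fold higher in the testis (background 32.1%). Catsperb, an accessory subunit of this calcium channel, was 483-fold higher. Hvcn1, a proton channel also used by white blood cells, had 1.52, 2.07, 1.04 and 1.23 CPM in the testis and 46.9, 51.0, 44.2 and 33.0 CPM in the efferent ductules and was the exception.

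The efferent ductule library labelled replicate 3 was high in germ cell transcripts. It was the highest of the 4 efferent ductule libraries for 20 of 20 round spermatid genes, 8 of 8 elongating spermatid genes, 19 of 20 tail genes, 13 of 14 channel genes and 21 of 25 meiotic genes. Over all tested genes with a read in these libraries it was the highest for 7947 of 28714, over spermatogonia genes for 7 of 13, over axoneme genes for 48 of 102, over Sertoli cell genes for 9 of 15 and over Leydig cell genes for 2 of 9. The median ratio of replicate 3 to the mean of the other efferent ductule libraries was 5.03 for round spermatid genes, 4.06 for elongating spermatid genes and 5.19 for tail genes, against 0.99 for all genes, 1.04 for axoneme genes, 1.20 for Sertoli cell genes and 0.86 for Leydig cell genes. The Sertoli cell ratio covers only the 11 genes with a read in those other libraries. Over all 15, the median Sertoli cell gene stood at 1.27, 2.02, 3.60 and 0.734 percent of the testis mean in replicates 1 to 4. The elongating spermatid genes summed to 29.0, 28.7, 109 and 28.9 CPM in efferent ductule replicates 1 to 4, and the Leydig cell genes to 9.60, 10.4, 10.3 and 10.4 CPM. Set against the testis mean, the median tail gene stood at 0.427, 0.301, 1.66 and 0.325 percent in the 4 efferent ductule libraries, so that replicate 3 was apart from the other libraries and still far below the testis.

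**Figure D5:**
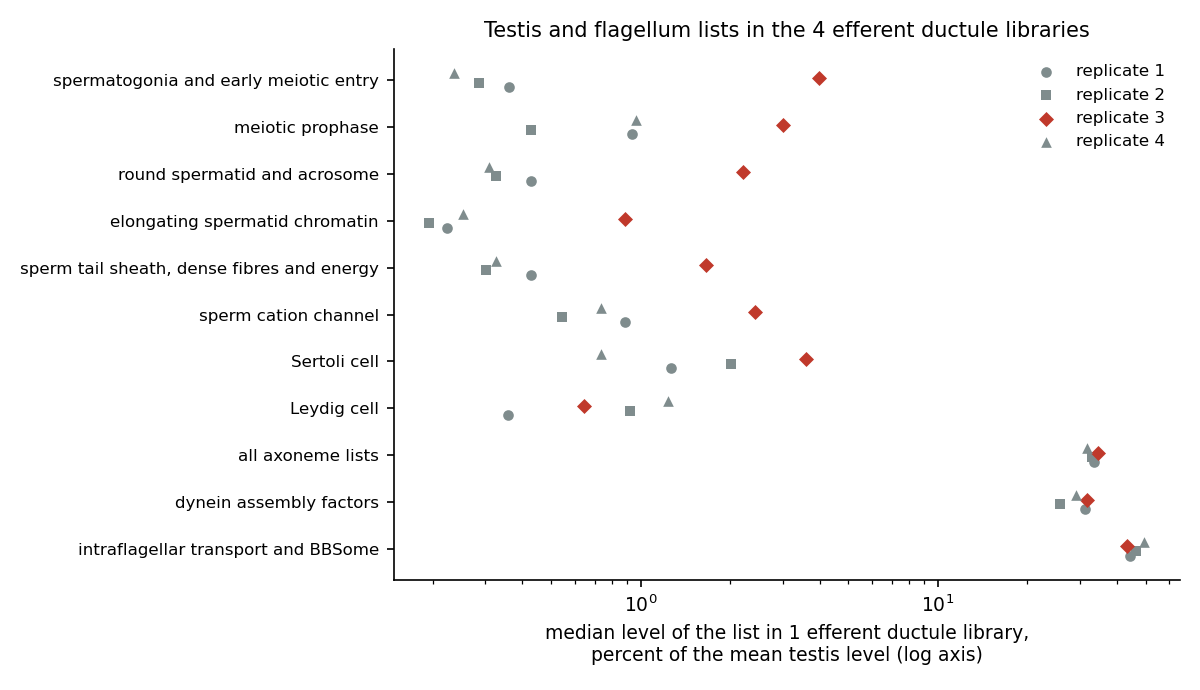
Median level of each testis or flagellum list in 1 efferent ductule library as a percent of the mean testis level (log axis), with 1 marker per replicate at 3 months. Replicate 3 lies at 0.885 to 3.98 percent for the germ cell lists, to the right of the other replicates, while for the axoneme lists the 4 markers lie together.

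Leaving this library out changed the calls of few listed genes. Without replicate 3, 82 axoneme genes were higher in the testis and 14 in the efferent ductules, as with it, and the counts of the germ cell lists were also as with it. The median log2 fold change of the spermatogonia list went from -6.37 to -7.92, that of the round spermatid list from -7.05 to -8.25, that of the elongating spermatid list from -8.11 to -8.76, that of the tail list from -7.29 to -8.37 and that of the channel list from -6.24 to -7.20. The median of the meiotic list went from -6.75 to -6.72 and that of the axoneme lists from -1.60 to -1.62. For 38 of the genes named here the fitted fold differed by over 1.5 times without this library, and all 38 fitted folds were larger. Of these, 1700019M22Rik, Cst12 and Pih1d3 then had no read left in the efferent ductules, so that no fold is given for them. Among the others the log2 fold change went from -7.36 to -8.04 for Dnah8, from -6.61 to -8.91 for Ccdc63 and from -7.70 to -8.996 for Ldhc. It went from -8.91 to -10.08 for Catsperb, from -8.21 to -10.10 for Acrv1 and from -8.10 to -9.28 for Capza3. The remaining ones were Akap4, Aldoart1, Atp8b3, Cetn1, Cst8, Ddx4, Defb19, Dnah17, Esrrb, Fhl4, G6pd2, Gapdhs, Nme8, Odf3, Pdha2, Pgk2, Piwil1, Prm1, Prm2, Rbmxl2, Rfx4, Ropn1l, Rpl10l, Rsph6a, Spag6, Sycp2, Sycp3, Tssk1 and Tssk2.

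Somatic cells of the testis were on the testis side as well. All 9 tested Leydig cell genes were higher in the testis. Cyp17a1, a step of androgen synthesis, had 230.3, 301, 266 and 194 CPM in the testis and 0.889, 1.07, 1.46 and 1.33 CPM in the efferent ductules. Hsd17b3, which makes testosterone, had 19.7, 20.5, 20.7 and 20.1 CPM in the testis and 2 reads in all efferent ductule libraries together, a ratio of 704 (95% counting interval 195 to 5820.2). Insl3, the Leydig cell hormone of testis descent, differed least, by 3.71-fold. Of 15 Sertoli cell genes 13 were higher in the testis, among them Amhr2, a receptor for anti-Müllerian hormone, at 84.6-fold and Cst12, a cystatin, at 328-fold. Sox9, the Sertoli cell factor that epithelia also use, had 18.6, 18.8, 20.8 and 18.4 CPM in the testis and 222, 279, 218 and 217 CPM in the efferent ductules and was 12.2-fold higher there.

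The reabsorbing cell marked the other side. Of 25 genes of fluid and protein uptake, 18 were higher in the efferent ductules (72%, against 37.7%), 4 in the testis and 3 were not called. Lrp2, the endocytic receptor megalin, had 3.55, 4.39, 3.38 and 4.29 CPM in the testis and 2759.8, 2525, 2561 and 2670.1 CPM in the efferent ductules (log2 fold change 9.39 ± 0.14, adjusted p = 7.67e-16). Dab2, its endocytic adaptor, was 91.2-fold higher in the efferent ductules. Slc26a3, a chloride and bicarbonate exchanger, was the farthest of the list with 5 reads in all testis libraries and 164, 153, 157 and 157 CPM in the efferent ductules. Slc34a2, a phosphate transporter, was the farthest on the testis side, 4.05-fold higher with 129, 131, 126 and 131 CPM in the testis and 32.4, 28.5, 33.9 and 32.8 CPM in the efferent ductules. Aqp1, the water channel of the brush border, and Slc9a3, the sodium and proton exchanger, were named after their values were seen and were 1357- and 71.1-fold higher in the efferent ductules.

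Transcription factors of ducts and kidney went with the epithelium, with 14 of 18 tested higher in the efferent ductules (against 37.7% of all genes), 2 in the testis and 2 not called. Esr1, the estrogen receptor that efferent ductules need for uptake of fluid, had 13.3, 16.0, 15.7 and 14.1 CPM in the testis and 824, 779.6, 819.6 and 871 CPM in the efferent ductules, 55.8-fold higher. Pax8, a factor of kidney and duct development, had 3 reads in all testis libraries together and 304, 319, 269 and 316 CPM in the efferent ductules, and the ratio had a 95% counting interval that began at 2194. Hnf4a, a nuclear receptor of absorbing epithelia, was 710.3-fold higher in the efferent ductules. Esrrb, an orphan receptor, was 36.8-fold higher in the testis.

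Of 17 genes of epithelial junctions and keratins, 15 were higher in the efferent ductules and 2 in the testis. Cldn2, a claudin of leaky epithelia, had 0.317, 0.244, 0.307 and 0.195 CPM in the testis and 445, 422, 394 and 432 CPM in the efferent ductules. Cdh16, a cadherin of kidney tubules, had 3 reads in all testis libraries and 421, 435, 376 and 405 CPM in the efferent ductules. Krt8, a keratin of simple epithelia with 1 near-identical pseudogene, was 56.6-fold higher, and Prom1, which is found on apical protrusions and also in the testis, 3.61-fold. Muc1, an apical mucin, was 15.5-fold higher in the testis.

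Genes of cells around the ductules were part of these libraries. The paper describes removing fat and excess connective tissue before the regions were isolated. All 10 fibroblast and matrix genes, all 12 macrophage and antigen presentation genes and all 8 adipocyte genes were higher in the efferent ductules (against 37.7% of all genes), as were 7 of 8 endothelial genes and 9 of 10 smooth muscle genes. Col1a1, a collagen chain, had 12.8, 12, 19.2 and 18.4 CPM in the testis and 1027, 876, 1029 and 772 CPM in the efferent ductules. Cd74, the chain that escorts class II molecules, was 55.7-fold and Plvap, of vessel walls, 53.6-fold higher (log2 fold change 6.37 without testis replicate 1). Car3 and Fabp4, carbonic anhydrase and lipid carrier of fat cells, had 401, 547, 353 and 576 CPM and 144, 240.1, 141 and 243 CPM in the efferent ductules, with replicates 2 and 4 above replicates 1 and 3 for both. Lep, the fat cell hormone, was 236-fold higher. The adipocyte genes together summed to 1041, 1408, 904 and 1449 CPM in the efferent ductules and 12.8, 14.9, 14.98 and 11.5 CPM in the testis, and their part in other results was not tested. Actg2, the enteric smooth muscle actin, was the exception with 225, 241, 223 and 213 CPM in the testis and 12.1, 11.3, 12.7 and 10.97 CPM in the efferent ductules.

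Initial segment genes were used to look for tissue of the next region. Of 12 genes 8 were tested, and 3 were higher in the testis, 2 in the efferent ductules and 3 were not called. Summed over all 12 genes, tested or not, the efferent ductule libraries had 17.7, 5.91, 8.36 and 2.77 CPM and the initial segment libraries 54270.3 to 64450.2 CPM. The testis libraries had 220.1, 241, 216 and 209 CPM because of Cst8 and Defb19, a cystatin and a defensin that the testis also makes, at means of 150.3 and 64.0 CPM there. The 3-month efferent ductule libraries thus held little of the initial segment markers. Red blood cell genes summed to 28.02, 30.1, 29.7 and 36.2 CPM in the testis and 19.3, 25.2, 29.4 and 27.5 CPM in the efferent ductules.

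The most abundant genes that differed at least 4-fold without overlap show the 2 tissues at a glance. On the testis side they included Dnah8, Prm2, Pabpc1 (a poly(A)-binding protein), Ldhc, Prm1, Fhl4, Atp8b3 (a lipid flippase of the acrosome), Odf2 and Akap12 (a kinase anchor). On the efferent ductule side they included Malat1 (a nuclear noncoding RNA), Glul (glutamine synthetase), Lrp2, CT010467.1, Gpx3 (a secreted glutathione peroxidase), Gja1 (a gap junction protein), Syne2 (a nuclear envelope linker), Gsn (an actin-severing protein) and Atp11a (a lipid flippase). Malat1 had 2598, 2548, 2638 and 3128 CPM in the testis and 22060.1, 22589, 22778 and 22757 CPM in the efferent ductules. Gpx3 had 5.07, 5.55, 5.40 and 3.96 CPM in the testis and 2066, 2358, 1655 and 2119.6 CPM in the efferent ductules and was 409-fold higher.

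The largest folds on the efferent ductule side were of Mmp7, Cyp2e1, Plet1, Adcy8, Pklr, Chad, Cdh16 and Kcnj15. Mmp7, a matrix metalloproteinase of secretory epithelia, had no read in the testis and 489.6, 473, 459 and 594 CPM in the efferent ductules, at least 10719-fold higher against a floor of 3 counts over the group. By the same floor Cyp2e1, a cytochrome P450 of xenobiotic metabolism, was at least 5854-fold, Plet1, an epithelial surface protein, at least 4818-fold, Pklr, the pyruvate kinase of liver and red cells, at least 2579-fold and Chad, a cartilage matrix protein, at least 1282-fold higher. Cyp2e1 had 227, 243, 209.9 and 423 CPM in the efferent ductules, with replicate 4 the highest. Adcy8, an adenylate cyclase, and Kcnj15, a potassium channel, each had 1 read in all testis libraries together.

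On the testis side the largest folds were mostly of genes without a known role: 4931408C20Rik, Gm47894, Gm28269, Glt6d1, Gm15262, Gm19395, 1700019M22Rik and 1700029M03Rik. Gm47894 had 20.4, 22.9, 26.5 and 23.4 CPM in the testis and no read in the efferent ductules, at least 540.1-fold higher in the testis. Glt6d1, a member of a glycosyltransferase family, was at least 395-fold higher. 4931408C20Rik had 68.2, 75.9, 65.7 and 65.4 CPM in the testis and 1 read in all efferent ductule libraries.

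By type of gene, long intergenic noncoding RNA (lincRNA) lay to the testis side. Of 2940 tested lincRNA genes, 1949 were higher in the testis (66.3%) and 599 in the efferent ductules (20.4%), with a median log2 fold change of -4.27. Among protein-coding genes the sides were close to even, with 8297 of 18287 higher in the testis (45.4%) and 8074 in the efferent ductules (44.2%). On the X chromosome 352 of 790 protein-coding genes were higher in the testis (44.6%) and 388 in the efferent ductules (49.1%), and with a fold change of at least 4 the shares were 38.6% and 29.2%, against 24.6% and 21.6% on the autosomes. On the Y chromosome 60 of 64 were higher in the testis, 59 of them by at least 4-fold.

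The same contrast in 21-month-old mice gave a second set of libraries. Of the genes higher in the testis at 3 months, 13068 were also higher there at 21 months, which was 89.9% of the 3-month calls and 92.7% of the 21-month calls. For the efferent ductules the number was 9817, or 83.9% and 91.6%, and 44 and 30 genes of the 3-month calls were called in the opposite direction. At 4-fold or more, 9035 and 5153 genes were shared, where 32.9% and 19.9% of all genes were called at 21 months. Of the axoneme genes, 80 of 82 on the testis side kept their call (against 89.9% of all 3-month calls), while Maats1 and Cfap46 did not. On the efferent ductule side 10 of 14 kept theirs (against 83.9%). Of all genes, 46.1% and 35% were called at 21 months. Rsph10b, a spoke protein, was 1.24-fold higher in the efferent ductules at 3 months and was called on the testis side at 21 months (-0.23), and Dnah6, Dnah10 and Wdr66 were not called at 21 months. The heavy chains kept their exchange, with log2 fold changes at 21 months of 5.40 for Dnah5, -8.01 for Dnah8, 4.66 for Dnah9 and -7.64 for Dnah17. The genes Maats1, Cfap46, Rsph10b, Dnah10 and Wdr66 were named after their calls were seen. No 21-month efferent ductule library stood at more than 1.11 percent of the testis in the median gene of a germ cell list. In these older mice, however, efferent ductule replicates 2 and 3 summed to 1789 and 708 CPM over the initial segment genes, against 4.06 and 8.25 CPM in the other pair, and the part of this in the 21-month values was not tested.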

How the data were processed

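Gene counts of stranded total RNA libraries, sequenced as paired-end reads, were used as the authors deposited them, as whole numbers of reads per Ensembl gene without normalization. The submitters' processing notes name cutadapt, HISAT2, HTSeq and mm10; versions, annotation release and strand setting are not given in the sources used here. Gene symbols, positions and exon lengths came from GENCODE M21 (GRCm38), which gave a symbol to 30983 of the 31045 tested genes. Antisense and overlapping genes are therefore uncertain where strand was not used in counting. Samples were grouped by tissue and age as labelled, and all 8 libraries entered the test.

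Genes with at least 10 reads over the 8 libraries were tested with edgeR 4.0.16 in R 4.3.3 (TMM scaling, quasi-likelihood F-test, 4 against 4 libraries, two-sided) with Benjamini-Hochberg adjustment over all tested genes. CPM per kb divides by the summed exon length. A fold against a group with no read is a lower bound from a floor of 3 counts over the group, and ratios over 1 to 3 reads carry an exact 95% interval; both cover counting error only. The fit was also run on simulated counts, drawn for both groups from the efferent ductule means with few genes changed. Such counts cannot test the scaling between tissues that differ as much as these. No 2 libraries were duplicates, and, although the tissues come from the same mice, no source used here says that a replicate number marks a mouse; correlations of deviations between same-numbered libraries were -0.02 to 0.08, so the numbers were not used as pairs. Near-identical copies share at least 95% of 300 or more bases. The motifs were the X-box and the CRE (TGACGTCA), on both strands of 300-base promoters; the CRE was found in 2.03% of genes with a promoter, 5.88% of axoneme genes and no gene of the elongating spermatid or tail lists.

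The members and the 26 lists were chosen with earlier results of these data known. Of the 103 listed axoneme genes 102 were matched, Cfap47 as Gm7173. Genes were named by a rule, and a few of the genes it chose are not reported here: per direction, the 10 most abundant and the 8 largest folds (mean of at least 10 CPM) among genes at least 4-fold different without overlap; per list, the 4 most abundant and the farthest in each direction, or all for lists of 10 or fewer; all pairs; and the 6 smallest (mean of at least 5 CPM in both tissues) and 6 most extreme axoneme genes. The alternatives were DESeq2 1.42.0, median-of-ratios scaling, library size only, filterByExpr, no filter, all 28 libraries of this age in one fit, protein-coding genes only, no Gm42418 and mitochondrial genes, the replicate number as a block, the 21-month libraries, and leaving out each library in turn.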

Additional observations from a re-analysis of the deposited data

Results flagged for a closer look

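The libraries of each tissue were compared among themselves in 390 groups of 4, for the summed level of each list and for each gene named, and a library was listed where its gap to the nearest other divided by the range of its group exceeded Dixon's 95% critical value. Chance gives about 1 in 20 groups, and 49 were listed, of which 27 had efferent ductule replicate 3 as the high library. The groups are not independent, since a list stands beside its own members, 7 shares are 1 by construction, and the germ cell transcripts of replicate 3 were known from earlier results, so these counts are a description. The meiotic prophase list summed to 311 CPM in efferent ductule replicate 3, above 258 to 266 CPM in the other efferent ductule libraries (gap 0.858 of the range). The round spermatid and acrosome list summed to 112 CPM in efferent ductule replicate 3, above 41.3 to 47.5 CPM in the other efferent ductule libraries (gap 0.912 of the range). The elongating spermatid chromatin list summed to 109 CPM in efferent ductule replicate 3, above 28.7 to 29.0 CPM in the other efferent ductule libraries (gap 0.995 of the range). The sperm tail sheath, dense fibres and energy list summed to 518 CPM in efferent ductule replicate 3, above 222 to 247 CPM in the other efferent ductule libraries (gap 0.916 of the range). The Sertoli cell list summed to 337 CPM in efferent ductule replicate 2, above 279.8 to 287 CPM in the other efferent ductule libraries (gap 0.871 of the range). Sox9, which epithelia also use, made up 279 CPM of this sum in replicate 2 and 217 to 222 CPM in the others. Set against the testis mean, the median Sertoli cell gene stood at 2.02 percent in replicate 2 and 3.60 percent in replicate 3. The Leydig cell list summed to 9.60 CPM in efferent ductule replicate 1, below 10.3 to 10.4 CPM in the other efferent ductule libraries (gap 0.833 of the range). The axoneme lists summed to 24415 CPM in testis replicate 3, below 26079 to 26263 CPM in the other testis libraries (gap 0.901 of the range).

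Efferent ductule replicate 3 also stood high for 23 of the genes named. The gap made up the following share of the range: Prm2 (0.992), Sycp2 (0.959), Ccdc63 (0.955), Spag6 (0.955), Kif17 (0.952), Gapdhs (0.948), Akap4 (0.935), Defb19 (0.931), Prm1 (0.929), Ddx4 (0.927), Atp8b3 (0.916), Tssk2 (0.911), Cfap206 (0.911), Dnah17 (0.886), Nme8 (0.883), Cetn1 (0.865), Fhl4 (0.864), Ldhc (0.848), Rpl10l (0.846) and Acrv1 (0.839). Prm2 had 60.2 CPM in replicate 3 and 14.2 to 14.5 CPM in the other efferent ductule libraries. Gapdhs had 32.6 CPM in replicate 3 and 4.85 to 6.28 CPM in the other efferent ductule libraries. Kif17 had 21.5 CPM in replicate 3 and 7.82 to 8.47 CPM in the other efferent ductule libraries. Kif17, of intraflagellar transport, and Cfap206, of the radial spoke, were listed beside the germ cell genes. In 1700019M22Rik, Cst12 and Pih1d3 it was the only efferent ductule library with a read, so the share is 1 by construction.

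Other libraries stood apart for single genes. In 4931408C20Rik, Adcy8, Car3 and Kcnj15 1 library held all reads of its tissue (share 1). In the efferent ductules these were Cfap77 in replicate 4 (high, 0.898), Cyp2e1 in replicate 4 (high, 0.845), E2f5 in replicate 2 (high, 0.874), Kit in replicate 3 (low, 0.855), Rsph14 in replicate 4 (low, 0.869) and Sox9 in replicate 2 (high, 0.923). In the testis these were Cdh16 in replicate 3 (low, 0.938), Cst12 in replicate 4 (high, 0.865), Hnf4a in replicate 1 (high, 0.901), Lep in replicate 4 (high, 0.964), Malat1 in replicate 4 (high, 0.845), Pabpc1 in replicate 4 (low, 0.847), Rsph6a in replicate 2 (high, 0.854), Sox9 in replicate 3 (high, 0.861) and Zmynd10 in replicate 3 (low, 0.93).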

How the results depend on the processing

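The counts of genes and of axoneme genes on each side stayed within 1.5 times under all 18 alternatives, with 1 exception. When protein-coding genes alone were tested, 8432 genes were higher in the testis, 4705 of them by at least 4-fold, and 3893 were at least 4-fold higher in the efferent ductules, since fewer genes entered the test. Leaving out each library in turn gave 13974 to 14400 genes higher in the testis and 11346 to 11569 in the efferent ductules, 9524 to 9964 and 6150 to 6345 with at least 4-fold, and 76 to 82 and 12 to 14 axoneme genes. With the replicate number as a block the counts were 14271, 11375, 9890 and 6237, with 81 and 14 axoneme genes; no source says that a number marks a mouse (same-number correlations -0.02 to 0.08), and 3 of 4 libraries correlated best with their own number.

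Signs turned for genes near 0, and with library size only Ccdc40, Cfap46, Drc3, E2f4, Gas8, Rfx3 and Spef2 were then called higher in the efferent ductules, of which Cfap46 had been called higher in the testis. With library size only, Ccdc40 was at 0.25, Cfap46 at 0.19, Drc3 at 0.30, E2f4 at 0.31, E2f5 at 0.16, Gas8 at 0.26, Hydin at 0.15, Maats1 at 0.041, Rfx3 at 0.38 and Spef2 at 0.33 on the log2 scale. At 21 months Ccdc40 was at 0.18, Dnah10 at -0.23, E2f4 at 0.072, Gas8 at 0.082 and Rsph10b at -0.23. Rsph14 was at -0.11 with DESeq2 and with median-of-ratios scaling, -0.0029 with filterByExpr and -0.039 with protein-coding genes. Rfx3 was at 0.061 in the fit of 28 libraries and 0.040 without Gm42418 and mitochondrial genes, and Spef2 was at 0.0068 in the fit of 28 libraries. Leaving out single libraries moved Drc3 between -0.095 and 0.0069, Rfx3 between -0.055 and 0.093, Rsph14 between -0.053 and 0.143 and Spef2 between -0.094 and 0.027. The cause was not tested. The call of Cfap46 was lost in 9 settings and that of Dnah10 in 7, among them those without testis replicate 2 (-0.18 for Cfap46 and 0.24 for Dnah10). At 21 months the calls of Cst12 (-0.98), Maats1 (-0.34), Mcidas (2.11) and Wdr66 (0.25) were lost as well. Leaving out 1 library left no read in its tissue for 4931408C20Rik (efferent ductule replicate 4), Car3 (testis replicate 2), Adcy8 and Kcnj15 (testis replicate 3), and 1 or 2 reads for Pax8 (without testis replicate 1) and Slc26a3 (without testis replicate 3), so no fold is given for these. Depth limits genes near the floor of 3 counts.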

Other observations

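A few groups of genes outside the lists are given as values, chosen after they were seen. Of 493 tested unprocessed pseudogenes, 389 were higher in the testis (78.9%) and 44 in the efferent ductules (8.92%), against 46.8% and 37.7% of all genes, with a median log2 fold change of -5.02. Among protein-coding genes of chromosome 14, 420 of 765 were higher in the testis (54.9%), against 45.3% on the autosomes, and 284 by at least 4-fold (37.1%, against 24.6% on the autosomes). Of 9 tested constant-region genes of immunoglobulins, which plasma cells express, 7 were at least 4-fold higher in the efferent ductules, against 20.3% of all genes, and 1 in the testis. The variable genes of immunoglobulins were split. Of 23 tested, 10 were at least 4-fold higher in the testis (against 32.1% of all genes) and 6 in the efferent ductules.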
